A study of Macaca mulatta with 24 samples.

Results

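The B cell genes examined here were 9 genes of the B lymphocyte, MS4A1, CD22, CD79A, CD79B, VPREB3, PAX5, BLK, BANK1 and SP140, measured in the ileum of rhesus macaques after total-body irradiation (TBI). Their probes were found by gene symbol in the normalized expression table, which held 9 probes for 5 of the genes: CD79B and BANK1 with 2 probes each, SP140 with 3, and MS4A1 and VPREB3 with 1. CD22, CD79A, PAX5 and BLK had no probe under those symbols. The 9 probes stood among 43603 probes on each of 24 arrays, and 8 of them were bright enough to enter the test with 36108 probes in all.

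The macaques were young adult males, and the irradiated ones were exposed once to cobalt-60 gamma rays over the whole body while the controls were handled as a sham. A piece of whole gut tissue from each animal was hybridised to its own single-colour array, without pooling, and no cell type was sorted. The 7 groups were sham-irradiated controls (n = 4, labelled day 4), 6.7 Gy and 7.4 Gy on day 4 (n = 4 each), 6.7 Gy and 7.4 Gy on day 7 (n = 4 each), and 6.7 Gy and 7.4 Gy on day 12 (n = 2 each). The same 4 controls served both doses and all 3 days, so the 6 comparisons with them share their errors.

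B lymphocytes mature in the bone marrow and settle in the ileum in follicles of the gut wall, the Peyer's patches, where they meet antigen and become memory cells or antibody-secreting plasma cells. They sense antigen through a surface immunoglobulin that signals through the paired chains CD79A and CD79B, and their identity is held by transcription factors such as PAX5. Resting lymphocytes are among the cell types most easily killed by ionising radiation.

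Each array was shifted to its own 75th percentile, so every level below is a log2 signal relative to that percentile and a value of 0 is a probe as bright as it. Levels are compared between animals for the same probe only, since probes differ in how strongly they hybridise. The 75th percentile lay between 837 and 1330 intensity units, 72.7% to 88.1% of probes were well above background on an array, and no spot was saturated. FABP6, the ileal bile acid-binding protein, was at 8.74 ± 0.05 (SD, n = 4) in the controls, and the epithelial keratin gene KRT20 was at 5.99 ± 0.45 (SD, n = 4). All 4 controls were at position 1 of their slides and were scanned on scan day 1 of 2. In whole tissue, fewer B cells and less RNA per B cell cannot be told apart.

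CD79B, the signalling chain that pairs with CD79A in the B cell receptor, lies on chromosome 16 at 73838610-73842251 in the RefSeq annotation of assembly T2T-MMU8v2.0, the source of all positions given here. Its brighter probe (probe 1) was above background on all 24 arrays. Controls 1 to 4 gave log2 signals of -0.18, -0.76, 0.13 and 1.17, a spread of 3.81-fold between the lowest and highest animal. On day 4 the signals were -1.31, -1.27, -1.15 and -1.07 after 6.7 Gy and -1.10, -1.25, -0.95 and -1.34 after 7.4 Gy. All 8 of these animals lay below every control and within a narrow band. On day 7 the animals given 6.7 Gy gave -1.38, -0.25, -0.18 and -0.81, and those given 7.4 Gy gave -1.17, -1.37, -1.13 and -1.34. Day 12 signals were -0.73 and -1.02 after 6.7 Gy and -1.25 and -0.87 after 7.4 Gy. Animals 2 and 3 of the day 7 6.7-Gy group and animal 1 of the day 12 6.7-Gy group reached the control range, and the remaining 17 of 20 irradiated animals were below every control.

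The second CD79B probe was dimmer and gave the same ranking of the controls, with -3.23, -4.03, -2.86 and -1.75. On day 4 it gave -4.20, -5.10, -4.71 and -4.98 after 6.7 Gy and -4.95, -4.68, -4.77 and -5.00 after 7.4 Gy. On day 7 it gave -5.65, -3.59, -3.85 and -4.49 after 6.7 Gy, against -5.02, -5.48, -5.28 and -5.75 after 7.4 Gy. After 6.7 Gy animals 2 and 3 were again inside the control range and animal 1 was far below it, while all 4 animals given 7.4 Gy were below the controls. On day 12 the signals were -4.39 and -4.54 after 6.7 Gy and -4.97 and -3.43 after 7.4 Gy, and the second animal at the higher dose was the other one within the control range.

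MS4A1, on chromosome 14 at 13557316-13572679, encodes CD20, the surface protein of mature B cells targeted by therapeutic antibodies. The controls gave -5.79, -6.29, -5.29 and -3.48, all above background. On day 4 the signals were -7.51, -8.90, -7.10 and -7.85 after 6.7 Gy and -8.34, -7.33, -7.87 and -7.85 after 7.4 Gy, and only animal 3 of the lower dose was above background. On day 7 they were -9.04, -5.67, -5.55 and -7.22 after 6.7 Gy and -2.90, -9.22, -8.10 and -7.38 after 7.4 Gy. Animals 2 and 3 of the 6.7-Gy group thus stood inside the control range, as they did for CD79B. The value of -2.90 in animal 1 of the 7.4-Gy group was higher than in any control, and this was the only irradiated animal above every control for any of the 9 probes. Its scanner file raised no outlier mark for that spot. On day 12 the signals were -7.66 and -7.61 after 6.7 Gy, both below background, and -7.02 and -6.27 after 7.4 Gy.

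BANK1, an adaptor of B cell receptor signalling on chromosome 5 at 111139544-111459387, was read by 2 probes designed to the same transcript. Probe 1 gave -3.66, -3.93, -3.00 and -0.99 in the controls. After 6.7 Gy it gave -5.30, -4.17, -4.33 and -4.59 on day 4, and after 7.4 Gy -3.79, -4.39, -3.91 and -4.87. On day 7 the signals were -5.66, -3.93, -3.90 and -4.73 after 6.7 Gy and -4.62, -4.19, -5.56 and -5.62 after 7.4 Gy. The lowest control sat at the upper edge of the irradiated animals, 16 of which were below every control, and control 4 was far above all of them. Day 12 signals were -5.08 and -5.70 after 6.7 Gy and -5.52 and -4.61 after 7.4 Gy. BANK1 probe 2 was above background in the 4 controls, at -5.06, -5.99, -3.99 and -2.89, and on 7 of the 20 irradiated arrays. On day 4 it gave -6.55, -6.17, -6.16 and -7.13 after 6.7 Gy and -6.36, -7.32, -7.48 and -7.23 after 7.4 Gy, all 4 of the latter not above background. The groups did not overlap with the controls on that day. On day 7 it gave -6.76, -6.06, -7.05 and -6.14 after 6.7 Gy and -5.36, -6.51, -6.65 and -8.00 after 7.4 Gy, and on day 12 -8.02 and -6.89 after 6.7 Gy and -6.95 and -5.85 after 7.4 Gy.

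VPREB3, on chromosome 10 at 27931997-27933732, encodes a small protein that binds immunoglobulin heavy chains in cells assembling the B cell receptor. Its controls were the most even of the 9 probes, at -3.69, -4.12, -3.58 and -2.44, which is 3.20-fold between the extremes. On day 4 the signals were -6.37, -6.06, -5.39 and -6.10 after 6.7 Gy and -6.97, -6.04, -7.62 and -7.01 after 7.4 Gy. All 20 irradiated animals were below every control. On day 7 they gave -7.43, -4.67, -4.43 and -4.60 after 6.7 Gy and -7.57, -7.84, -6.62 and -7.14 after 7.4 Gy, so that animals 2, 3 and 4 at the lower dose lay just under the controls and animal 1 lay among the animals at the higher dose. On day 12 the signals were -5.59 and -5.82 after 6.7 Gy and -6.65 and -5.13 after 7.4 Gy. VPREB3 was above background in all 4 controls and in 10 of the 20 irradiated animals: 2 and 1 of 4 on day 4, 3 and 1 of 4 on day 7, and 2 and 1 of 2 on day 12, the lower dose first.

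SP140, a nuclear body protein of lymphoid cells that reads chromatin marks, lies on chromosome 12 at 135496430-135587682. Its 3 probes were designed to 3 different transcripts and are described one by one. Probe 2 gave -2.88, -3.42, -2.73 and -0.20 in the controls. On day 4 it gave -5.20, -5.43, -4.77 and -4.28 after 6.7 Gy and -4.45, -5.10, -5.27 and -5.64 after 7.4 Gy. All 20 irradiated animals were below every control on this probe. On day 7 the signals were -5.28, -4.39, -3.85 and -4.64 after 6.7 Gy and -5.59, -5.02, -5.31 and -6.80 after 7.4 Gy. Day 12 signals were -4.67 and -4.79 after 6.7 Gy and -4.54 in both animals after 7.4 Gy.

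SP140 probe 1, which was above background on all 24 arrays, gave -2.09, -2.66, -2.09 and -0.81 in the controls and between -3.59 and -2.14 in the irradiated animals, 13 of which were below every control. SP140 probe 3 was above background only in controls 1 and 4, at -5.84 and -3.79, and was not tested. All 20 irradiated animals were below background on probe 3, so no fold is given for it.

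**Figure D1:**
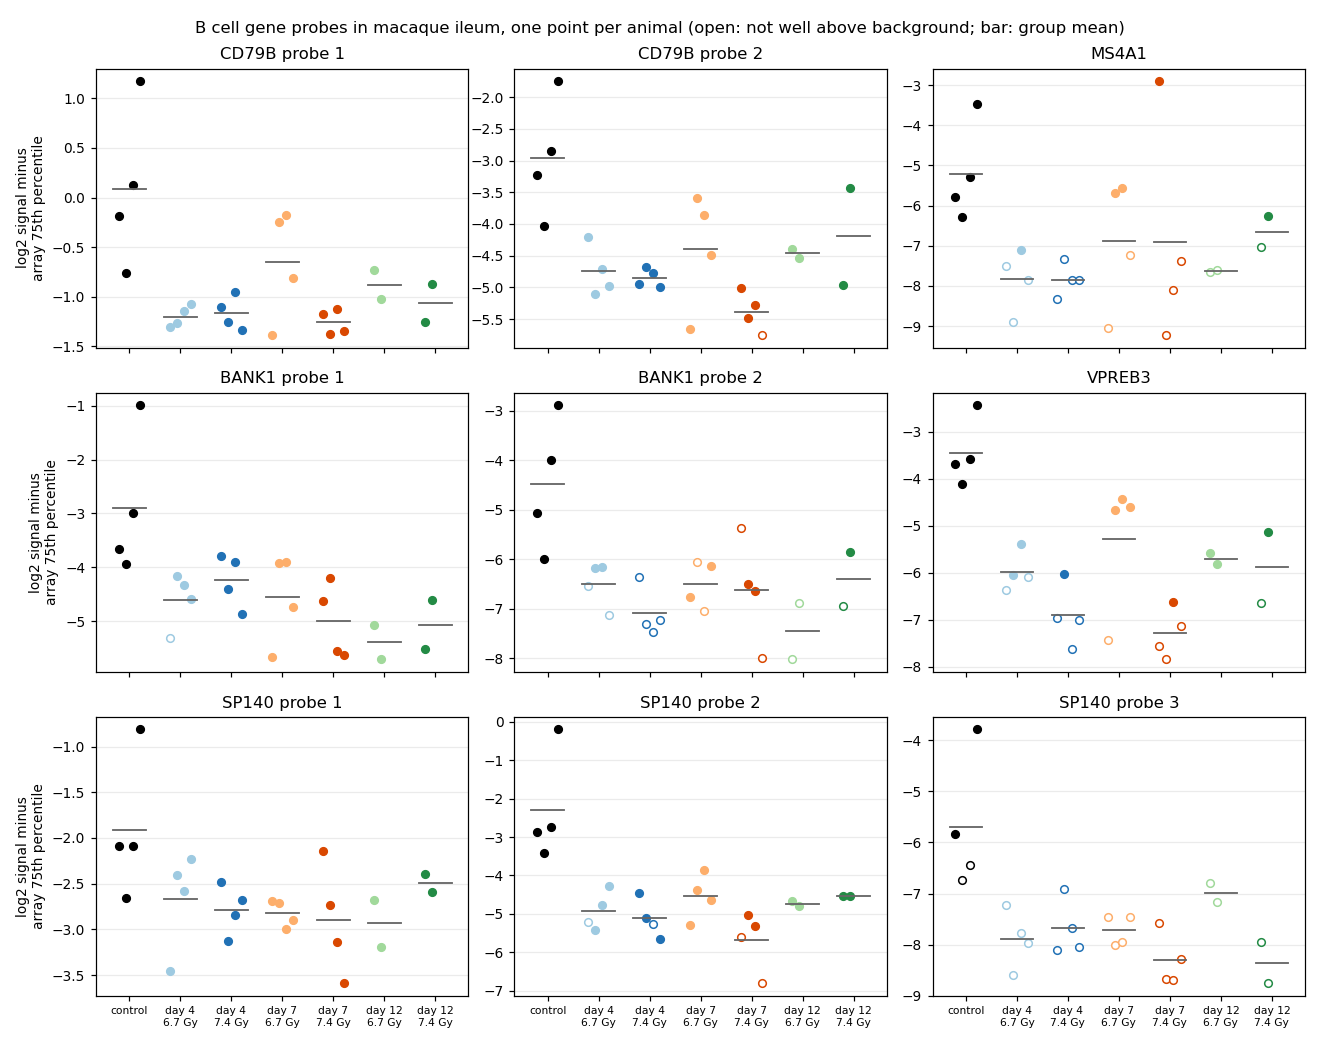
Log2 signal minus the 75th percentile of the array (y axis) for the 9 B cell gene probes in the 7 groups (x axis), with 1 point for each animal in replicate order, open where the probe was not well above background, and a bar at the group mean. The fourth control is the highest control in every panel, and animals 2 and 3 of the day 7 6.7-Gy group lie within or near the control range of CD79B and MS4A1.

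The spread between controls is large beside these differences. Control 4 was the highest and control 2 the lowest control for all 9 probes, and the controls had the largest SD of the 7 groups for 6 of the 9. The control SD lay between 0.716 and 1.44 on the log2 scale. Over the 24 arrays the 36 pairs of probes had Pearson correlations between 0.49 and 0.91 with a median of 0.73, and over the 20 irradiated arrays the median was 0.24, with a range from -0.30 to 0.77. These are correlations across animals that share arrays and groups, given as a description.

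Irradiated animals were then compared with the controls in a limma fit over all tested probes, in which a call needs both a 2-fold difference or more and a Benjamini-Hochberg adjusted p under 0.05. The question was which B cell transcripts differ from unirradiated ileum at each day and dose. MS4A1 and BANK1 probe 2 were above background on every array of the controls and of no other group, so they entered the fit through the group in which they were high and had to differ, and the counts here are over the other 6 probes. On day 4 after 6.7 Gy, 4 of these 6 probes were called lower, against 0.382% of all tested probes: both CD79B probes, VPREB3 and SP140 probe 2. The same 4 were called lower on day 4 after 7.4 Gy, against 0.734% of all tested probes, and on day 7 after 7.4 Gy, against 0.454%. None of the 6 was called on day 7 after 6.7 Gy, where 0.183% of all tested probes were called lower, nor on day 12 after 6.7 Gy (0.0748%) or 7.4 Gy (0.0249%). With the same fold and an unadjusted limma p under 0.05, the lower probes numbered 4, 5 and 5 of the 6 in those 3 comparisons, against 0.881%, 0.919% and 1.18% of all tested probes. By that looser rule they numbered 5, 5 and 5 in the comparisons with calls, against 1.62%, 1.4% and 1.75%.

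VPREB3 had a fitted log2 change of -3.83 ± 0.54 (SE, limma adjusted p = 0.0014) on day 7 after 7.4 Gy and of -3.45 ± 0.54 (adjusted p = 0.0012) on day 4 after 7.4 Gy, in both cases against a group in which 1 of 4 animals was above background. After 6.7 Gy it was -2.52 ± 0.54 on day 4 (adjusted p = 0.019), with 2 of 4 animals above background. With the animals that were not above background set at the lowest signal that counted as such on their arrays, the group means of VPREB3 were 7.86-fold, 6.39-fold and 4.58-fold below the controls in these 3 comparisons. With normexp background correction its log2 changes were -1.06, -1.25 and -0.95, the last of them not called, and without control 4 the day 4 6.7-Gy call was also lost (-2.18, adjusted p = 0.052). SP140 probe 2 changed by -2.61 ± 0.52 on day 4 after 6.7 Gy (adjusted p = 0.012), by -2.81 ± 0.52 after 7.4 Gy (adjusted p = 0.0043) and by -3.37 ± 0.52 on day 7 after 7.4 Gy (adjusted p = 0.0023), where 2 of 4 animals were above background. Without control 4 these changes were -1.91, -2.11 and -2.67, all still called. By SP140 probe 1 the gene had log2 changes of -0.75, -0.87 and -0.99 in the same 3 comparisons, none of them called (adjusted p between 0.12 and 0.19).

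CD79B fell on both probes in those 3 comparisons. Probe 1 changed by -1.29 ± 0.29 on day 4 after 6.7 Gy (limma adjusted p = 0.025), by -1.25 ± 0.29 after 7.4 Gy (adjusted p = 0.016) and by -1.34 ± 0.29 on day 7 after 7.4 Gy (adjusted p = 0.026). Probe 2 changed by -1.78 ± 0.43, -1.89 ± 0.43 and -2.41 ± 0.43, with adjusted p of 0.034, 0.015 and 0.0064. Without control 4, probe 1 had changes of -0.93, -0.89 and -0.98 and was called in none of the 3, while probe 2 lost the call on day 4 after 6.7 Gy (-1.38). The call of probe 1 on day 7 after 7.4 Gy was lost when any of 6 of the 8 animals was left out, as was that of probe 2 on day 4 after 6.7 Gy, and probe 1 on day 4 after 6.7 Gy also lost its call without control 3 (adjusted p = 0.059). BANK1 probe 2, tested only because it was high in the controls, is given without a test: it was at least 3.54-fold lower on day 4 after 7.4 Gy, with measured group means of -4.48 in the controls and -7.10 in the irradiated animals. This bound sets the mean of the controls against the lowest signal that counts as above background on each irradiated array, and without control 4 it was 2.45-fold. On day 4 after 6.7 Gy, with 2 of 4 animals above background and the others set at the lowest signal above it, it was 2.63-fold lower, and 1.82-fold without control 4. BANK1 probe 1 was not called in any comparison, the closest being day 7 after 7.4 Gy (-2.10 ± 0.53, limma adjusted p = 0.062), where its change without control 4 was -1.47.

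MS4A1, which also entered the fit through the controls alone, is given without a test. On day 4 after 6.7 Gy, with 1 of 4 animals above background and the others set at the lowest signal above it, MS4A1 was 2.01-fold lower than in the controls, and 1.35-fold lower without control 4. After 7.4 Gy on day 4, where no animal was above background, it was at least 2.13-fold lower, and at least 1.43-fold lower without control 4. On day 7 after 7.4 Gy animal 1, the one above every control, was the only one of its group above background. With the other 3 at the lowest signal above background MS4A1 was 1.52-fold lower in that group, and 1.02-fold without control 4. The fitted change of this group rested on single animals, at -1.69 with all 4, -3.02 without animal 1 and -0.91 without animal 2.

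Without MS4A1 and BANK1 probe 2, the 6 other tested probes were lower than the controls in each of the 6 comparisons, with median log2 changes of -1.74, -1.61, -1.55, -2.26, -1.87 and -1.70 for day 4, day 7 and day 12, the lower dose first on each day, while the median over all tested probes lay between -0.10 and 0.06. With normexp background correction the medians of these 6 probes were -0.92, -1.07, -0.76, -1.04, -0.95 and -0.94, and the median over all tested probes lay between -0.05 and 0.08. On day 7 after 6.7 Gy the smallest adjusted p was 0.062, for SP140 probe 2 (-2.23 ± 0.52), and on day 12 the smallest over the 6 were 0.16 after 6.7 Gy and 0.20 after 7.4 Gy. The number of the 6 probes with no overlap between the irradiated animals and the controls was 5, 4, 3, 5, 5 and 4 in the same order, against 7.71%, 7.91%, 3.51%, 4.24%, 7.56% and 9.37% of all tested probes.

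**Figure D2:**
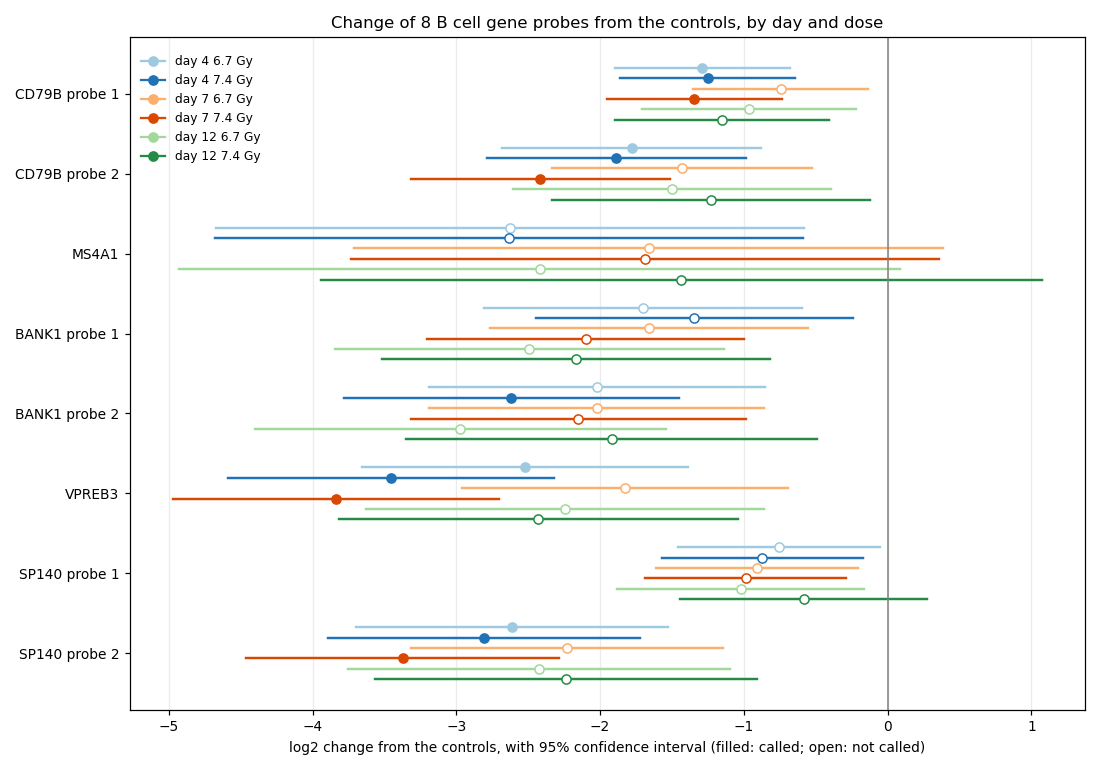
Log2 change from the controls (x axis) with its 95% confidence interval for the 8 tested B cell gene probes (y axis) and the 6 irradiated groups (colours), filled where the probe was called. All points of the 6 probes other than MS4A1 and BANK1 probe 2, which entered the fit through the controls alone, lie left of 0, and the intervals of MS4A1 are the widest.

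The calls depended on control 4 and on settings for the layout of the arrays. Without control 4, the number of the 6 probes called on day 4 after 6.7 Gy dropped from 4 to 1, while on day 4 and day 7 after 7.4 Gy it dropped from 4 to 3. With the position on the slide as a covariate the day 4 counts were 1 and 0, and among the arrays of the first scan day alone, with fewer animals, they were 0 and 0, with 0 also on day 7 after 7.4 Gy. For the 6 probes that did not enter through the controls alone, the log2 changes from the controls were below 0 in all 450 values under the alternatives. These values refit the same animals against the same controls and are not independent of each other. On the 4 slides that held a control, the irradiated animal was lower than the control of its own slide in 11 of 12 differences (the same 6 probes) for day 4 6.7 Gy, 12 of 12 for day 4 7.4 Gy, 21 of 24 for day 7 6.7 Gy, and 12 of 12 each for day 7 7.4 Gy and day 12 6.7 Gy. These are 2 animals a group, and 4 for day 7 6.7 Gy, each read by the 6 probes against 1 control. The probes of an animal are therefore not separate replicates. Over all tested probes, 57.7%, 53.3%, 50.4%, 49.4% and 44.7% of such differences were below 0 in the same order. The day 12 7.4-Gy animals shared no slide with a control. Animals 1 and 2 of the day 4 6.7-Gy group were the only irradiated animals at the position of the controls. All 4 animals of the day 4 7.4-Gy group were at position 2, so their value with position as a covariate rests on the day 4 6.7-Gy animals, which were at both positions. For days 7 and 12, at positions 3 and 4, position and irradiation cannot be told apart.

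The 2 doses were compared directly on each day. MS4A1 and BANK1 probe 2 are again left out. None of the other 6 probes was called on day 4, 7 or 12, where 0%, 0% and 0.00277% of all tested probes were called lower at 7.4 Gy and 0%, 0% and 0% higher. On day 7 all 6 had a lower mean after 7.4 Gy, with log2 differences from -2.01 for VPREB3 to -0.08 for SP140 probe 1. By the looser rule 2 were lower (0.244% of all tested probes). VPREB3 was 1 of them, with a measured difference of -2.01 and a 95% confidence interval from -3.14 to -0.88 (limma adjusted p = 0.99). It was above background in 3 of 4 animals at the lower dose and in 1 of 4 at the higher dose, so the size of this difference is not well measured. The other was SP140 probe 2 at -1.14, with an interval from -2.23 to -0.06. On day 4 the differences between the doses ran both ways, from -0.93 for VPREB3 (interval -2.06 to 0.20) to 0.36 for BANK1 probe 1. By the looser rule 0 were lower on days 4 and 12, against 0.0997% and 1.14% of all tested probes. On day 12, with 2 animals a group, the differences also ran both ways, from -0.19 for CD79B probe 1 to 0.44 for SP140 probe 1. The intervals were as wide as -1.79 to 1.42 for VPREB3.

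With the doses averaged, none of the same 6 probes was called between days 4 and 7, 4 and 12 or 7 and 12. The shares of all tested probes called lower at the later day were 0.41%, 1.21% and 0.0249%, and those called higher were 0.645%, 1.54% and 0.0886%. By the looser rule 0 of the 6 were lower, against 0.568%, 1.54% and 0.424% of all tested probes lower. VPREB3 was 0.65 higher on day 12 than on day 4 on the log2 scale, with an interval from -0.33 to 1.63. It was above background in 2 and 1 of 4 animals on day 4, so the size of this difference is not well measured. BANK1 probe 1 differed by -0.81 between the same days, with an interval from -1.76 to 0.15.

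The genes most like the B cell genes were ranked by the Pearson correlation of each named gene with the mean of the 5 genes over the 24 arrays. MS4A1, which entered the fit through the controls alone, is 1 of the 5, and the mean was highest in control 4. The ranking thus rests in part on the gap between controls and irradiated animals. The first 10 of 14222 genes had correlations between 0.80 and 0.87. Over the 20 irradiated arrays alone the same 10 had correlations between 0.37 and 0.69, and 2 of them were also among the first 10 there. CD1C, a lipid antigen-presenting molecule of B cells and dendritic cells, came first at 0.87. The second, at 0.86, was a probe listed only as LOC722190, and gene ID 722190 is CD79A in the RefSeq table. CD79A is the partner of CD79B and is 1 of the 4 genes that had no probe under their own symbol. The others were IRF4 (0.84) and MZB1 (0.82), which act in plasma cells, BMP3 (0.84), LOC100427844 (0.83), PNOC (0.82), KLHL6 (0.81), an adaptor of germinal centre B cells, SLC15A2 (0.81) and SIT1 (0.80), a lymphocyte signalling adaptor.

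CD79A gave -4.15, -4.14, -3.18 and -1.95 in the controls, with control 4 again the highest. On day 4 it gave -5.85, -5.13, -4.58 and -5.07 after 6.7 Gy and -5.09, -4.51, -4.48 and -5.03 after 7.4 Gy. On day 7 it gave -5.71, -4.57, -4.15 and -4.69 after 6.7 Gy and -5.12, -5.27, -5.35 and -7.17 after 7.4 Gy. The day 7 6.7-Gy animals again ran from a low animal 1 to an animal 3 at the edge of the control range. On day 12 the signals were -4.92 and -4.64 after 6.7 Gy and -4.94 and -4.27 after 7.4 Gy. CD79A was called lower on day 4 after 6.7 Gy (log2 change -1.80 ± 0.48, limma adjusted p = 0.047) and on day 7 after 7.4 Gy (-2.37 ± 0.48, adjusted p = 0.015), and it was not called on day 4 after 7.4 Gy (-1.42 ± 0.48, adjusted p = 0.076). The day 4 call was lost when any of 6 of the 8 animals was left out, with a change of -1.33 without control 4, and in 9 of 13 alternatives. The day 7 call was lost in 5 of 12, and without control 4 (-1.90) or animal 4 of its group (-1.89).

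**Figure D3:**
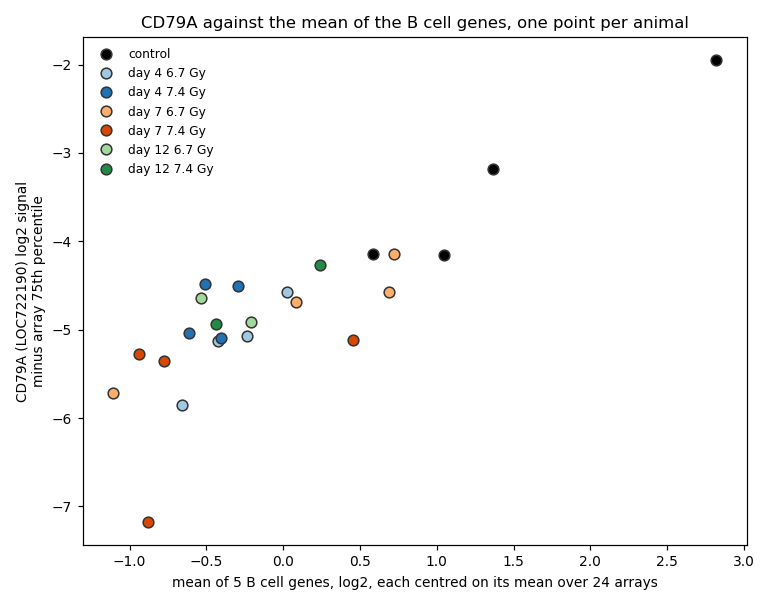
CD79A log2 signal minus the 75th percentile of the array (y axis) against the mean of the 5 B cell genes, each centred on its mean over the 24 arrays (x axis), with 1 point for each animal coloured by group. Control 4 is the point at the upper right, and the day 7 7.4-Gy animal at -7.17 is the lowest. The Pearson correlation over all 24 animals is 0.86.

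Other genes of the B lineage were read from lists of related genes. Beside their calls stand the shares of all tested probes called lower. These were 0.382%, 0.734%, 0.183%, 0.454%, 0.0748% and 0.0249% for days 4, 7 and 12, the lower dose first on each day. Of 11 tested genes for other B cell surface proteins and receptors, 1 was called in any comparison with the controls: FCRL2, an Fc receptor-like protein, on day 7 after 7.4 Gy (log2 change -1.84 ± 0.36, limma adjusted p = 0.012). In that group FCRL2 was above background in 2 of 4 animals, and the call was lost in 5 of 12 alternatives, with a change of -0.33 under normexp. CR2, the complement receptor of B cells and follicular dendritic cells, had the largest mean change of that list, from -0.42 to -3.90 over the 6 comparisons, and was not called, its smallest adjusted p being 0.066. The median change of the 11 genes lay between -0.61 and -0.03 over the 6 comparisons, while the median over all genes lay between -0.07 and 0.05. Between days 4 and 12, TNFRSF13C, the BAFF receptor of mature B cells, was called higher (1.68 ± 0.33, adjusted p = 0.0031), as was FCRLA, an intracellular Fc receptor-like protein (1.43 ± 0.34, adjusted p = 0.0087). On day 12 both had higher means than the controls, TNFRSF13C at -4.19 and -3.95 against -5.23 and FCRLA at 0.11 and -0.07 against -0.52, the lower dose first. FCER2 (-3.00 and -2.83 against -3.81) and CD40 (-0.73 and -0.66 against -0.99) were higher on day 4. Of the 11 genes 3, 3, 2, 1, 4 and 4 were higher than the controls in the 6 comparisons, and 8, 8, 9, 10, 7 and 7 lower.

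Among 8 tested genes of B cell receptor signalling, BTK, the kinase downstream of the receptor, was called lower on day 7 after 6.7 Gy (-1.30 ± 0.24, limma adjusted p = 0.017) and after 7.4 Gy (-1.27 ± 0.24, adjusted p = 0.010), each call being lost in 5 of 13 alternatives and without control 4 (-0.99 and -0.97). The first was also lost without animal 4 of its group (-1.18). The adaptor BLNK was called lower on day 4 after 7.4 Gy (-1.15 ± 0.32, adjusted p = 0.038) and was called higher on day 7 (1.16 ± 0.23, adjusted p = 0.0031) and day 12 (1.26 ± 0.28, adjusted p = 0.006) than on day 4 with the doses averaged. The kinase PRKCB was called lower on day 12 after 7.4 Gy (-1.01 ± 0.17, adjusted p = 0.032). The BLNK call against the controls was lost when any of 6 of the 8 animals was left out, and the PRKCB call when any of 5 of the 6 was. They were also lost in 7 of 14 and 6 of 12 alternatives, where the BLNK change was as small as -0.34. SYK and LYN, kinases shared with other blood cells, were not called in any comparison. The list median lay between -0.49 and -0.21.

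IKZF3, also called Aiolos, a transcription factor of lymphocytes, was called lower in 4 of the 6 comparisons, with log2 changes of -1.03 ± 0.20 on day 4 after 6.7 Gy (limma adjusted p = 0.012), -1.15 ± 0.20 on day 7 after 6.7 Gy (adjusted p = 0.011), -1.60 ± 0.20 on day 7 after 7.4 Gy (adjusted p = 0.00058) and -1.37 ± 0.25 on day 12 after 6.7 Gy (adjusted p = 0.033). Its controls were even, from -2.30 to -1.75, and no irradiated animal reached them. The day 12 call was lost when any of 5 of the 6 animals was left out, and the day 4 call when any of 4 of the 8 was. The call on day 7 after 6.7 Gy was lost without control 1 (-1.09) or animal 1 of its group (-1.06). The 4 other tested transcription factors of the list, POU2F2, BACH2, IRF8 and MEF2C, were not called.

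Of 7 tested germinal centre genes, GCSAM, a germinal centre signalling protein, was called lower on day 4 after 6.7 Gy (-1.09 ± 0.23, limma adjusted p = 0.017) and on day 7 after 7.4 Gy (-1.37 ± 0.23, adjusted p = 0.0045). These calls were lost in 7 of 14 and 4 of 13 alternatives, and the day 4 call also without control 4 (-0.95) or without animal 1 or animal 2 of the irradiated group. RGS13, a regulator of G protein signalling in germinal centre B cells, had log2 changes from -2.24 to -0.08 and was not called. BCL6, the master regulator of the germinal centre, was not called. Its mean was 0.06 in the controls and 0.71 and 0.90 on day 4, the lower dose first. LMO2 was also higher on day 4, at 0.15 and 0.37 against -0.17. Of the 7 genes 2, 2, 3, 1, 4 and 2 had a higher mean than the controls in the 6 comparisons, and the others a lower one. Of the 5 early B cell genes VPREB1 and DNTT were tested and not called, RAG1 and RAG2 were too dim, and IGLL1 had no probe under its symbol.

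Of 14 tested genes of follicles and lymphocyte homing, CCL19 and CCL21, the chemokines of lymphoid stroma that draw cells carrying CCR7, were called higher on day 4 at both doses, where 0.595% and 1.6% of all tested probes were. CCL19 lay between -1.98 and -0.73 in the controls, between 0.93 and 1.94 on day 4 after 6.7 Gy and between 0.61 and 1.17 on day 4 after 7.4 Gy, with log2 changes of 2.83 ± 0.42 (limma adjusted p = 0.0014) and 2.40 ± 0.42 (adjusted p = 0.0031). CCL19 was lower on day 7 than on day 4 (-1.38 ± 0.30, adjusted p = 0.0054) and lower on day 12 than on day 4 (-2.46 ± 0.37, adjusted p = 0.00043). The log2 change of CCL21 was 1.12 ± 0.20 at the lower dose (adjusted p = 0.0057), a call lost without animal 2 of that group (0.92), and 1.23 ± 0.20 at the higher dose (adjusted p = 0.0016). Their receptor CCR7 was called lower on day 7 after 7.4 Gy (-2.31 ± 0.42, adjusted p = 0.0075) and on day 12 after 6.7 Gy (-2.68 ± 0.52, adjusted p = 0.040, lost when any of the 6 animals was left out). CXCR5 and CXCL13, the receptor and ligand that guide B cells to follicles, were not called.

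**Figure D4:**
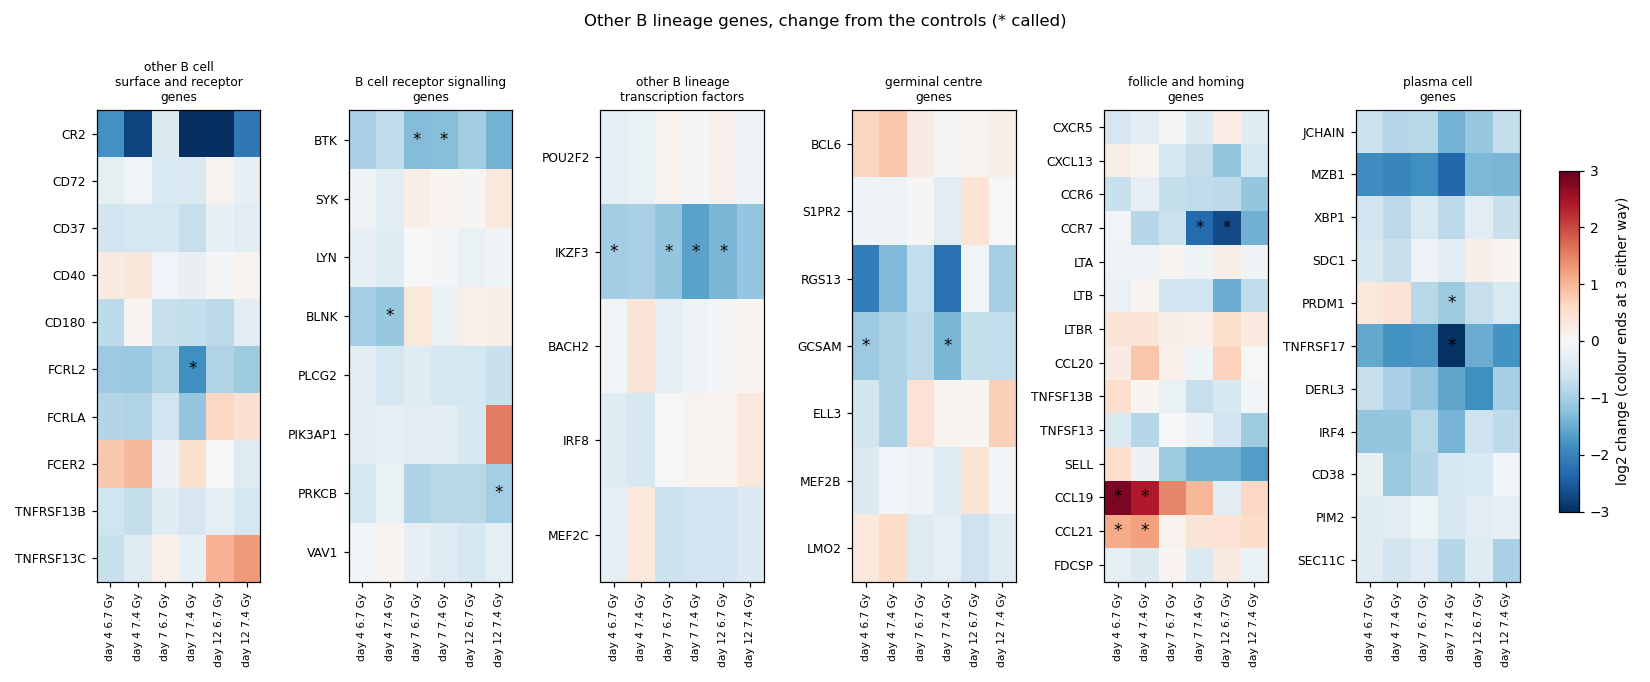
Log2 change from the controls (colour, blue lower and red higher) in the 6 irradiated groups (columns) for tested genes of 6 lists (panels), with a star where a gene was called. IKZF3 carries 4 stars, and CCL19 and CCL21 are the genes called higher, both on day 4.

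The plasma cell genes also had control 4 as their highest control. Their mean level, relative to the control mean, was 0.90 in control 4 and between -0.49 and -0.08 in the other controls, and the irradiated animals lay between -1.99 and -0.41. Of 11 tested genes, 10 or 11 were lower in each comparison. TNFRSF17 (BCMA, a survival receptor of plasma cells) was called lower on day 7 after 7.4 Gy (-2.97 ± 0.58, limma adjusted p = 0.012, lost without control 4), as was PRDM1, the plasma cell regulator also used by other cells (-1.06 ± 0.23, adjusted p = 0.026, lost when any of 5 of the 8 animals was left out). MZB1, a chaperone of antibody secretion, had log2 changes from -2.36 to -1.34 and was not called.

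The mean of 12 tested T cell genes ran from -0.29 to 0.34 in the controls and from -0.94 to 0.04 in the irradiated animals, and control 4 was the lowest control rather than the highest. Of 7 tested macrophage genes, 6 and 7 had a higher mean than the controls on day 4, 2 and 3 on day 7 and 5 and 4 on day 12, the lower dose first. On day 4 after 7.4 Gy CD14, a co-receptor for bacterial lipopolysaccharide, was called (1.14 ± 0.24, limma adjusted p = 0.011), though not without animal 1 of that group (0.85).

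Of 7 tested epithelial genes, VIL1, a protein of the brush border, was called lower on day 4 after 6.7 Gy (-1.32 ± 0.19, limma adjusted p = 0.0011) and 7.4 Gy (-1.27 ± 0.19, adjusted p = 0.00085), and KRT20 after 6.7 Gy (-1.05 ± 0.22, adjusted p = 0.015), a call lost without control 1 (-0.85), animal 2 (-0.99) or animal 4 (-0.97) of that group. The mean of the 5 smooth muscle genes was -1.79 in control 1 and between 0.56 and 0.65 in the other controls, with irradiated animals between 0.00 and 1.16, and none of the 5 was called. The globin gene HBB had the largest changes of any list gene, with log2 changes of -6.11 ± 0.62 and -5.88 ± 0.62 on day 4 and -6.86 ± 0.62 and -7.57 ± 0.62 on day 7, the lower dose first, with adjusted p of 2e-05 or less. HBA was called in the same 4 comparisons, with changes from -3.43 to -3.29, and both globins were called on day 12 after 6.7 Gy, calls that were lost without control 4 or either irradiated animal, and for HBA also without control 3. HBA1, the third tested gene of the red cell list, had changes between -0.30 and 0.07 and was not called. The part that these other cell types have in the B cell gene differences was not tested.

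**Figure D5:**
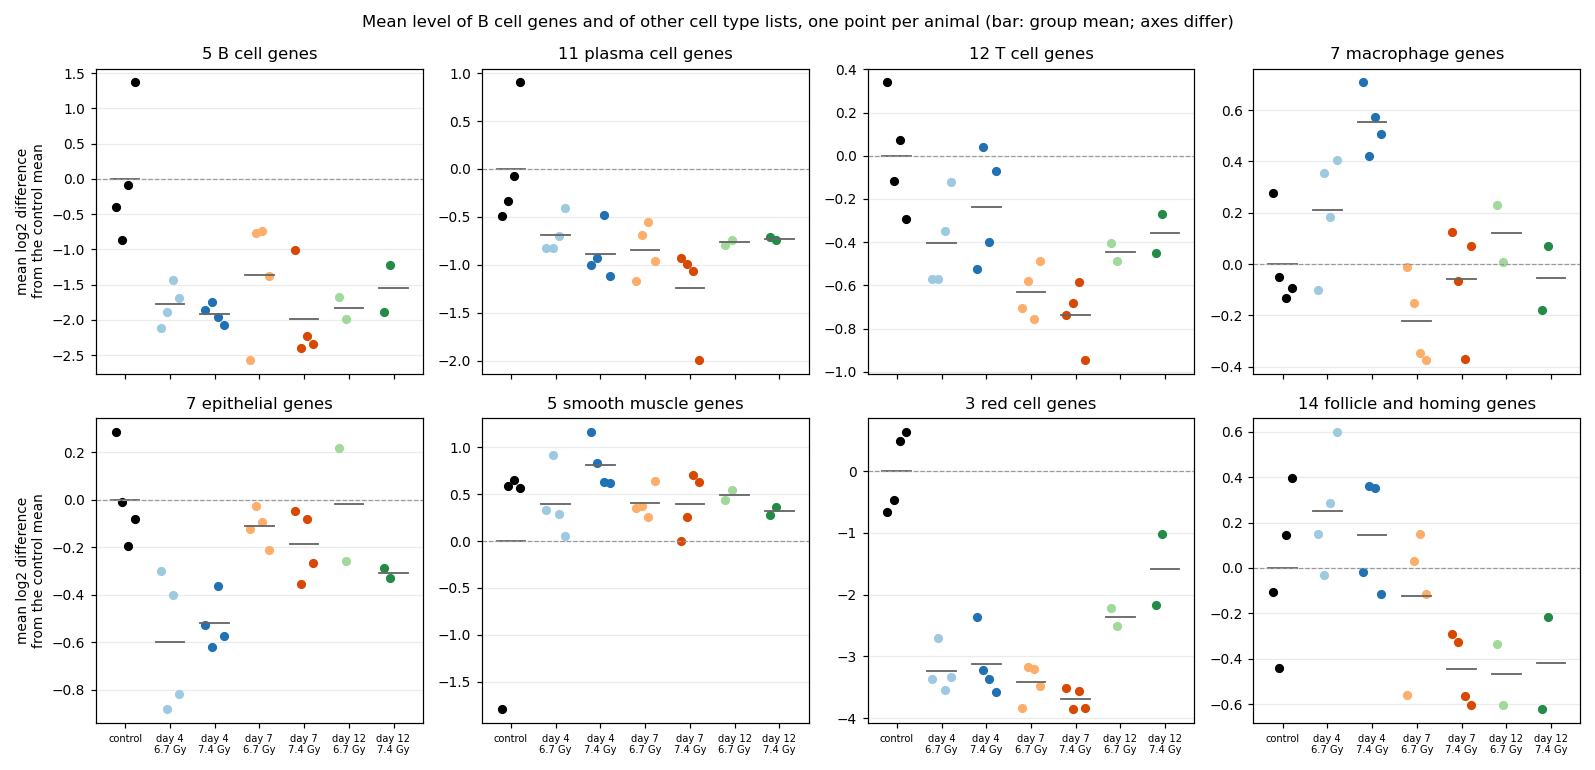
Mean log2 difference from the control mean (y axis) of the 5 B cell genes and of 7 other gene lists in the 7 groups (x axis), with 1 point for each animal and a bar at the group mean; the y axes differ between panels. Control 4 is the highest control for the B cell, plasma cell, red cell, and follicle and homing genes. Control 1 is the lowest for the plasma cell, smooth muscle and red cell genes.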

How the data were processed

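Per the labels and the methods, the authors extracted RNA from whole ileum and hybridised each sample to a single-colour Agilent rhesus array. Deposited were Feature Extraction files with a processed intensity for each spot, a table of raw intensity, and a normalized log2 table in which the authors shifted each array to its 75th percentile. That table was also centred on each probe's median over the 24 arrays.

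The processed intensity was taken to log2 and the 75th percentile of each array was subtracted. Spots of a probe were averaged. Tests were limited to probes that the scanner marked well above background throughout 1 or more groups. Limma 3.58.1 (R 4.3.3) fitted the means of the 7 groups over all 24 arrays for 12 comparisons (two-sided, Benjamini-Hochberg over 36108 probes), and calls needed a 2-fold difference and an adjusted p under 0.05. Setting signals that were not above background to the lowest signal that was, for part of a group, was chosen after seeing the data. The fit was tested on simulated data. The number of arrays limits the precision. The plain t-test of the methods was run as an alternative. For normexp, median spot signals were used because no mean signal was given. The labels' text names 21 days where the titles and the methods give day 12, which was used.

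Probes were named from the table, with 8317 renamed by RefSeq accession and 2936 by gene number. List genes were read by their brightest tested probe. Named are all probes of the B cell genes, list genes called against the controls or with the largest mean change over the 6 comparisons (up to 4 a list), and the 10 most alike genes. SYK, LYN, BCL6, CXCR5 and CXCL13, and other genes given only as not called, were named for their role. TNFRSF13C and FCRLA, called between days, and FCER2, CD40 and LMO2, higher than the controls on day 4, were named after their values were seen. A few list genes are not reported here. The genes and lists were chosen with earlier results of these data known. The replicate numbers did not pair the animals. Sequences were not used here.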

Additional observations from a re-analysis of the deposited data

Results flagged for a closer look

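For VPREB3 on day 7 after 6.7 Gy, animal 1 had a log2 signal of -7.43, not above background, while the other 3 animals lay between -4.67 and -4.43. The gap between that animal and its nearest neighbour was 0.923 of the range of the group, above the 95% critical value of Dixon's test for 4 animals. It was the 1 such case among the 45 combinations of a probe and a group of 4 that were looked at, and chance gives about 1 in 20. Animal 1 was the lowest of its group for 6 of the 9 B cell gene probes. Without it the VPREB3 change on day 7 after 6.7 Gy was -1.11, compared with -1.83 with it, and neither was called.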

How the results depend on the processing

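The counts here are over the 6 B cell gene probes that did not enter the fit through the controls alone. These probes kept their direction in all comparisons with the controls under all alternatives run, which use the same animals. Their calls moved as follows. Called lower on day 4 after 6.7 Gy were 4 probes, but 2 with normexp, 1 with array position as a covariate, 1 with scan day as a block, 1 when only probes above background on all arrays were kept (2 of the probes left), and 0 with slide as a block, with the first scan day alone, with the compared groups alone, and with the methods' t-test after Benjamini-Hochberg adjustment. On day 4 after 7.4 Gy the 4 became 3 with normexp and 1 with the compared groups alone. They became 1 with probes above background on all arrays, 1 with the t-test, and 0 with array position or the first scan day alone. On day 7 after 7.4 Gy the 4 became 3 with scan day as a block, 2 with slide as a block and 1 with the compared groups alone. They became 1 with probes above background on all arrays, and 0 with the first scan day alone or the t-test. On day 12 after 6.7 Gy quantile normalization called 0 of the 6. Without adjustment the t-test called 4, 4 and 5 in those first 3 comparisons and 1 on day 7 after 6.7 Gy. It called 1 at each dose on day 12, and 1 between the doses on day 7. The scan day settings were chosen after seeing the data. Leaving out 1 animal at a time gave 1 to 4 calls on day 4 after 6.7 Gy (1 without control 4, 2 without control 3) and 3 to 4 after 7.4 Gy. It gave 0 to 1 on day 7 after 6.7 Gy (1 without control 2) and 3 to 5 after 7.4 Gy. The fit with the replicate block gave 4, 4 and 4 calls, the same numbers. Same-numbered animals did not deviate together (median correlation 0.03 over 62 pairs, from -0.26 to 0.36), so the numbers name the animals and do not pair them. Of the first 10 genes most like the B cell genes, 2 stayed with the irradiated arrays alone and 4 with Spearman correlation. MS4A1, SP140 probe 3, BANK1 probe 2 and VPREB3 were near background, above it on 9, 2, 11 and 14 of the 24 arrays, and normexp gave MS4A1 log2 changes of -0.54 and -0.60 on day 4. Of the 36 calls of list genes and CD79A against the controls, none turned its direction, while 21 were lost with the compared groups alone, 17 of 35 with the first scan day alone, 13 with slide as a block, 13 with normexp, 7 of 16 with array position and 34 with the adjusted t-test. The causes of these shifts were not tested.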
